A study of Mus musculus with 18 samples.

Results

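Small leucine-rich proteoglycans (SLRPs) are secreted matrix proteins with a core of leucine-rich repeats. The 10 genes described here, Dcn, Bgn, Aspn, Ecm2, Lum, Fmod, Prelp, Omd, Ogn and Podn, were taken by symbol from the 51435 genes of the deposited tables, where each symbol matched 1 gene. Left ventricular RNA came from 18 C57BL/6J mice, 9 WT and 9 WWP2 Mut/Mut littermates. WWP2 Mut/Mut mice are homozygous for a CRISPR deletion in exon 2 of Wwp2, an E3 ubiquitin ligase gene, which disrupts the full-length and N-terminal isoforms and is unlikely to affect the C-terminal isoform. The deletion is carried in the germline and so is not limited to a cell type. All 18 mice, controls included, received AngII, a peptide that raises blood pressure and drives cardiac fibrosis, at 500 ng/kg/min for 28 days from 8 weeks of age, and no mice without AngII were analysed here. The comparison of genotypes asks whether loss of these isoforms changes SLRP expression in the AngII-treated ventricle.

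In connective tissue, SLRPs sit on the surface of collagen fibrils, set fibril diameter and spacing, and hold growth factors such as TGF-beta in the matrix. Most carry chondroitin, dermatan or keratan sulfate chains, added in the Golgi by a series of glycosyltransferases and sulfotransferases. In the heart they are made mainly by fibroblasts and, in the valves and tendinous cords, by interstitial cells, and several are known to be induced in fibrotic myocardium. Class I holds decorin (Dcn), biglycan (Bgn) and asporin (Aspn), to which Ecm2 is related in sequence. Class II holds lumican (Lum), fibromodulin (Fmod), Prelp and osteomodulin (Omd), class III osteoglycin (Ogn) and class V podocan (Podn).

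Most SLRP genes lie in clusters on GRCm38. Ecm2, Aspn, Omd and Ogn follow each other on chromosome 13, from 49504810 to 49624501, all on the plus strand and all inside Cenpp, which runs on the opposite strand and had a mean of 1.29 TPM in both genotypes. Dcn and Lum are neighbours on chromosome 10, from 97479609 to 97572703, and Prelp and Fmod on chromosome 1, from 133910304 to 134048277. Bgn lies on chromosome X, from 73483602 to 73495933. Podn lies on chromosome 4, from 108014791 to 108096445, and its gene model overlaps Scp2 on the same strand, a gene with 242 TPM in WT mice, so that Podn values are uncertain where reads are shared. The library kit marks strand, and the strand setting of the counting is not given in the sources used here.

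The RefSeq promoter sequences used here (GRCm38.p6) cover 8 of the 10 genes, not Dcn and Lum. The 250 bases before the RefSeq start are shown for 2 neighbours on chromosome 1 that were high in the same WT mice, Fmod and Prelp, and for 2 genes of the chromosome 13 cluster that moved together across mice, Aspn and Ogn. Capitals mark matches, on either strand, to 5 motifs: the SMAD box CAGAC, the SMAD palindrome GTCTAGAC, the TATA box TATAAA, the AP-1 site TGANTCA and the TEAD site GGAATG.
Fmod (chr1:134037004-134037253, plus strand): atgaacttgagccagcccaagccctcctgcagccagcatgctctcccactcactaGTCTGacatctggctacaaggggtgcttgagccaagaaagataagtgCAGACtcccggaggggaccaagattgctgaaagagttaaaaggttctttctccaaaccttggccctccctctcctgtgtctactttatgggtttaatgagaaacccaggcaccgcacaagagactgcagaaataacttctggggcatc
Prelp (chr1:133921402-133921651, minus strand): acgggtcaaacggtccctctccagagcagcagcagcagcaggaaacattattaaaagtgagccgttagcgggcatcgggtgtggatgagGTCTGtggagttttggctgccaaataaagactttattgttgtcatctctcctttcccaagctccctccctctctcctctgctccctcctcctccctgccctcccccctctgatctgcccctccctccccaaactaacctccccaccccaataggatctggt
Aspn (chr13:49544193-49544442, plus strand): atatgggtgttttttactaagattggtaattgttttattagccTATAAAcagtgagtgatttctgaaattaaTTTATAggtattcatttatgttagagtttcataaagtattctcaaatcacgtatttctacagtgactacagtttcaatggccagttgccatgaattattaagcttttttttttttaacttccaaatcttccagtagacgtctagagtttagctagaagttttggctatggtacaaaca
Ogn (chr13:49607765-49608014, plus strand): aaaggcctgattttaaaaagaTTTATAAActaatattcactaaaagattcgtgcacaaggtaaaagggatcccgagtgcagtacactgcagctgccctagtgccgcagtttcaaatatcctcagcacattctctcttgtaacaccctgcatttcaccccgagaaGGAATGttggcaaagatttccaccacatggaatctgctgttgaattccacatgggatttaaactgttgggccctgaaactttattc
The RefSeq start of Ogn lies upstream of its GENCODE start at 49608046. The SMAD box matched at 2 places in Fmod and 1 in Prelp, and 42.2% of the 32851 RefSeq promoters of this length hold it. The TATA box matched in Aspn and, as 2 overlapping matches, in Ogn, far from the start in both, and 12.4% of promoters hold it. Ogn also has a TEAD site, found in 12.6% of promoters. In the other members with an entry (Bgn, Ecm2, Omd and Podn) none of the 5 motifs matched, and the palindrome (0.167% of promoters) and the AP-1 site (6.75%) matched in no member.

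The libraries held 24566994 to 37451087 expected counts, and each of the 4 sequencing lanes carried WT and WWP2 Mut/Mut mice. The targeted gene, Wwp2, was lower in every WWP2 Mut/Mut mouse (1.19 to 3.00 TPM) than in every WT mouse (3.83 to 6.01 TPM), with a log2 fold change of -1.40 (SE 0.157; adjusted p = 0.00113, edgeR quasi-likelihood test). TPM is scaled by transcript length, so levels of different genes can be compared. Cardiomyocyte markers were abundant in every mouse, with summed levels of 37400 to 50000 TPM over 8 genes. The summed level of 8 liver genes was 1.44 to 347 TPM in WT (median 83.6, highest in mouse 45-1) and 3.10 to 66.0 TPM in WWP2 Mut/Mut mice (median 20.8), and all 8 had a negative fitted log2 fold change with an unadjusted p below 0.05 (median -1.84, edgeR). All 5 adipocyte genes were also negative (median -0.96, edgeR), 2 of them at an unadjusted p below 0.05. No gene of either list was called, and their part in the SLRP levels was not tested. WT mouse 43-3 has an RNA concentration of 1.68 ng/ul in the deposited sample table, against 88.6 ng/ul or more in the other mice. The value may be an entry error and it enters every fit with this covariate, so the fits were repeated with it multiplied by 100. WT mice 43-3, 45-1 and 84-2 and WWP2 Mut/Mut mouse 8-2 stood above 1.5 times the median of a list of 8 valve, cartilage and tendon genes, and the SLRP fits and correlations were repeated without them. Of these 4 mice 3 were in lane 3, where only WWP2 Mut/Mut mouse 1-2 was left, so with lane as a covariate the repeated fits compare 6 WT with 7 WWP2 Mut/Mut mice of the other lanes, and the valve list and lane 3 cannot be told apart for those 3 mice.

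The 10 SLRPs differed widely in level. Dcn was the most abundant, with a mean of 217 TPM over 18 mice, followed by Bgn (106), Ogn (21.4), Lum (19.8), Prelp (12.2), Aspn (9.36), Ecm2 (5.24), Podn (3.05), Fmod (1.61) and Omd (0.477). The order of Dcn over Bgn held in 17 of 18 mice, and that of Bgn over Ogn and of Aspn over Ecm2 in 18 of 18. Ogn and Lum could not be ordered beyond their spread, with Ogn higher in 12 of 18 mice, and the order of Podn, Fmod and Omd held in 15 of 18 for each pair of neighbours. Together the SLRPs summed to 431 ± 122 and 361 ± 75.5 TPM in WT and WWP2 Mut/Mut mice (SD, n = 9). Dcn made up 54.5% ± 6.47 of this sum in WT and 53.9% ± 3.81 in WWP2 Mut/Mut mice (SD, n = 9), and Bgn 27.0% ± 8.03 and 28.3% ± 4.60. In the plot of TPM by mouse the groups of all 10 genes overlap, as did those of all but 1 of the 12405 expressed genes.

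**Figure D1:**
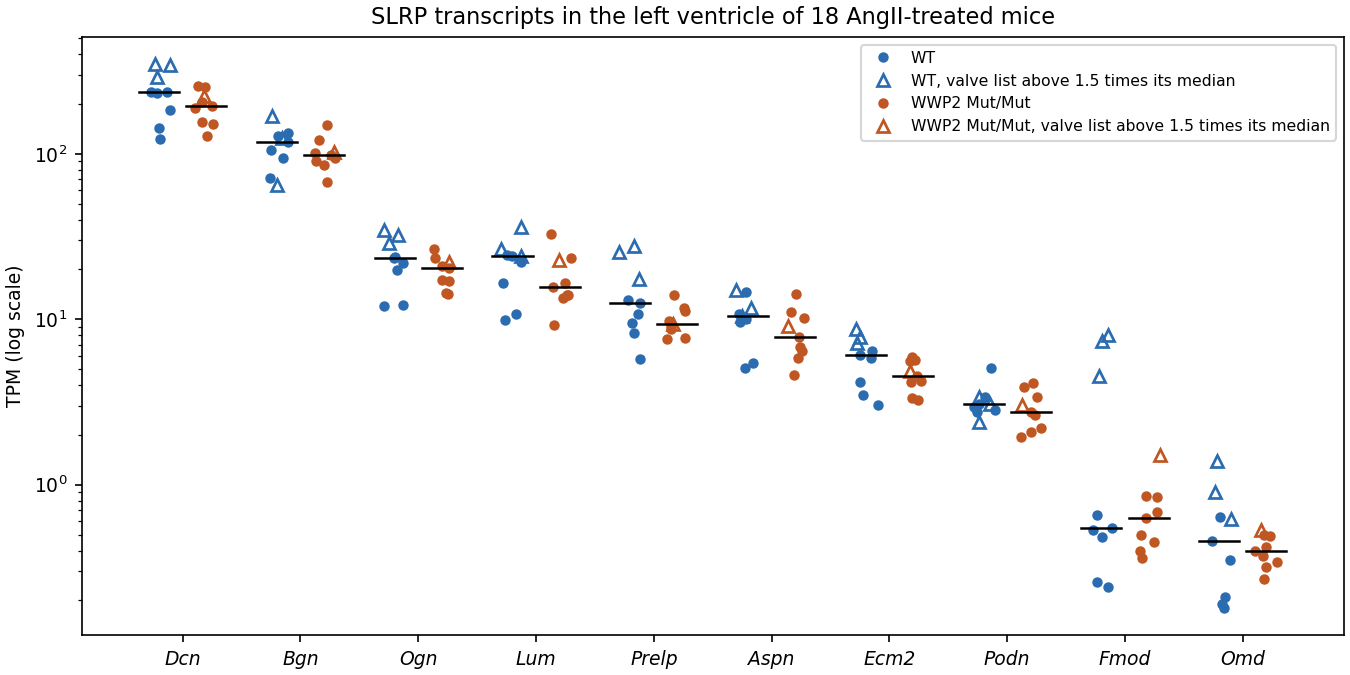
TPM of the 10 SLRPs on a log axis, 1 point per mouse, with WT in blue, WWP2 Mut/Mut in orange and a black bar at the median of each group of 9. Open triangles are the 4 mice high in the valve, cartilage and tendon list. In Fmod 3 WT triangles lie at 4.54 to 8.08 TPM and all other mice at 1.51 TPM or below.

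No SLRP passed an FDR of 0.05 between genotypes (0 of 10, edgeR quasi-likelihood test with lane and RNA concentration as covariates), where 1 of 24804 genes tested, Wwp2, did (0.00403%). None had an unadjusted p below 0.05 in edgeR or DESeq2, against 3.66% of all genes in edgeR. With the RNA concentration of WT mouse 43-3 multiplied by 100, a choice made after seeing the data, 4 SLRPs (Aspn, Lum, Fmod and Prelp) had an unadjusted p below 0.05 (4.07% of all genes) and none was called. With 1 mouse left out the count was 0 to 5. The highest, 5 (4.21% of all genes), came without WT mouse 16-1, the lowest WT mouse for Ecm2, Lum, Prelp and Ogn, whose removal raises the WT mean of these genes. For 9 of 10 SLRPs the fitted level was lower in WWP2 Mut/Mut mice, where 51.9% of all genes were lower, and the median log2 fold change was -0.24 over the SLRPs and -0.01 over all genes. The mean TPM was lower for 10 of 10, but so was that of 90.9% of the 12405 expressed genes, those above 1 TPM in at least 2 mice, and no exact permutation test of TPM fell below 0.05 (0 of 10, against 5.38% of expressed genes). On the scale of log2(TPM + 1), limma placed the median of all expressed genes at -0.13 and that of the 9 expressed SLRPs at -0.40. Without covariates the median of the SLRPs was -0.13, and without the 4 mice high in the valve list, a choice made after seeing the data, it was also -0.13, with 8 of 10 lower.

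**Figure D2:**
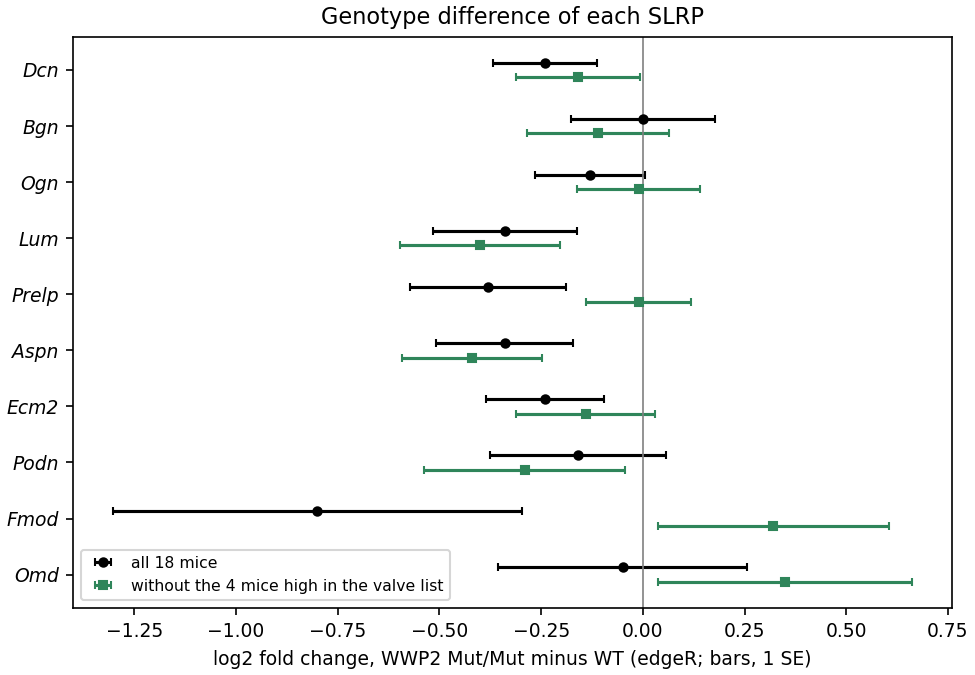
Log2 fold change of each SLRP, WWP2 Mut/Mut minus WT, from edgeR with lane and RNA concentration as covariates, with bars of 1 SE. Black circles use all 18 mice and green squares 14 mice. Without the 4 mice Fmod moved from -0.80 to 0.32 and Prelp from -0.38 to -0.01, whereas Aspn and Lum stayed near -0.4.

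Of the class I genes, decorin, which binds collagen I and TGF-beta, ranged from 123 to 349 TPM in WT mice (median 236) and from 128 to 256 TPM in WWP2 Mut/Mut mice (median 196). Its 3 highest WT mice, 45-1, 43-3 and 84-2, were above every WWP2 Mut/Mut mouse, while WT mice 94-2 and 16-1 were among the lowest of all. The means were 238 ± 80.8 and 195 ± 44.6 TPM (SD, n = 9; two-sided exact permutation test, p = 0.183), and the log2 fold change was -0.24 (SE 0.128; unadjusted p = 0.0780, adjusted p = 1.00, edgeR). Without the 4 mice high in the valve list the means of Dcn were 193 ± 51.0 TPM (SD, n = 6) and 192 ± 46.2 TPM (SD, n = 8; exact permutation test, p = 0.967), and the fitted log2 fold change was -0.16. The fitted value of Dcn was -0.12 (unadjusted p = 0.419, edgeR) without covariates and -0.40 (unadjusted p = 0.0479) with limma on log2(TPM + 1), a scale on which 86.5% of expressed genes were lower. Dcn was higher in WT in all 4 lanes, from 190 against 178 TPM in lane 1 to 319 against 207 TPM in lane 3. Aspn and Podn were so too, 3 of 10 SLRPs against 12% of expressed genes, while Fmod and Omd were higher in WT in 2 of 4 lanes and the other 5 in 3.

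Biglycan, the X-linked class I proteoglycan that signals through TLR2 and TLR4 when soluble, ranged from 64.8 to 168 TPM in WT (median 117) and from 67.8 to 149 TPM in WWP2 Mut/Mut mice (median 98.5). Groups overlapped almost fully, and WT held both the highest mouse, 43-3, and the lowest, 45-1. The log2 fold change of Bgn was 0.00 (SE 0.178; unadjusted p = 0.999, edgeR), which moved between -0.14 and 0.07 with 1 mouse left out. Its means were 112 ± 32.1 and 101 ± 23.1 TPM (SD, n = 9; two-sided exact permutation test, p = 0.436).

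Asporin, a class I member that binds collagen and TGF-beta and carries no glycosaminoglycan chain, ranged from 5.04 to 15.0 TPM in WT (median 10.5) and from 4.59 to 14.2 TPM in WWP2 Mut/Mut mice (median 7.76). Its means were 10.3 ± 3.44 and 8.44 ± 3.01 TPM (SD, n = 9; two-sided exact permutation test, p = 0.240). The log2 fold change of Aspn was -0.34 (SE 0.168; unadjusted p = 0.0600, edgeR), and -0.42 (SE 0.173; unadjusted p = 0.0298, edgeR) without the 4 mice high in the valve list, where its mean TPM was 9.23 ± 3.58 (SD, n = 6) and 8.35 ± 3.20 (SD, n = 8; exact permutation test without covariates, p = 0.633). Without covariates the log2 fold change of Aspn was -0.14. Ecm2, a matrix protein with leucine-rich repeats, ranged from 3.05 to 8.70 TPM in WT (median 6.04) and from 3.24 to 5.95 TPM in WWP2 Mut/Mut mice (median 4.55). For Ecm2, 5 WT mice exceeded all 9 WWP2 Mut/Mut mice and WT mouse 16-1 was below every one. Its means were 5.86 ± 1.94 and 4.62 ± 0.981 TPM (SD, n = 9; two-sided exact permutation test, p = 0.107), and 4.84 and 4.59 TPM without the 4 mice. The exact permutation p of Ecm2 was 0.0340 without WT mouse 16-1 and 0.0475 without WT mouse 94-2. These were the lowest WT mice for Ecm2, so leaving either out raises the WT mean. Without any other mouse the p lay between 0.0696 and 0.208. The log2 fold change of Ecm2 was -0.24 (SE 0.145; unadjusted p = 0.115, edgeR), and -0.14 with WWP2 Mut/Mut mouse 53-1 left out and -0.15 with WT mouse 45-3 left out.

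Among class II genes, lumican, a keratan sulfate proteoglycan that regulates fibril assembly, ranged from 9.93 to 36.1 TPM in WT (median 24) and from 9.24 to 32.7 TPM in WWP2 Mut/Mut mice (median 15.7). WWP2 Mut/Mut mouse 62-1 stood near the top of both groups, and 6 of the other 8 lay below 17 TPM. The means of Lum were 21.7 ± 8.18 and 18 ± 7.09 TPM (SD, n = 9; two-sided exact permutation test, p = 0.325), and the log2 fold change was -0.34 (SE 0.177; unadjusted p = 0.0689, edgeR). The fitted difference of Lum depended on covariates and was -0.10 without them, -0.22 without WT mouse 45-3 and -0.40 without the 4 mice high in the valve list. The mean TPM of Lum in those 14 mice was 18 in WT and 17.4 in WWP2 Mut/Mut mice (exact permutation test without covariates, p = 0.889).

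Fibromodulin, which binds the same region of collagen I as lumican and is abundant in tendon, cartilage and valve, was the most variable SLRP, with a coefficient of variation of 151% over 18 mice. It ranged from 0.24 to 8.08 TPM in WT (median 0.55) and from 0.36 to 1.51 TPM in WWP2 Mut/Mut mice (median 0.63). WT mice 43-3 (8.08 TPM), 45-1 (7.43 TPM) and 84-2 (4.54 TPM) were high and the other 6 WT mice were at 0.66 TPM or below, within the WWP2 Mut/Mut range or under it. The means were therefore 2.53 ± 3.26 and 0.692 ± 0.356 TPM (SD, n = 9; two-sided exact permutation test, p = 0.194), while the medians lay in the opposite order. The log2 fold change of Fmod was -0.80 (SE 0.502; unadjusted p = 0.127, edgeR). It was -1.56 (unadjusted p = 0.0148, edgeR) without covariates and -1.08 (unadjusted p = 0.0285) with lane alone, and it was -0.06 without WT mouse 45-1 and -0.39 when WWP2 Mut/Mut mouse 53-1 was left out. Without the 4 mice high in the valve list it turned to 0.32 (SE 0.284), at 0.453 ± 0.168 TPM in WT (SD, n = 6) and 0.590 ± 0.193 TPM in WWP2 Mut/Mut mice (SD, n = 8; exact permutation test, p = 0.194). Values rest on 33 to 967 counts per mouse.

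Prelp, which links basement membranes to the connective tissue beneath, ranged from 5.77 to 27.9 TPM in WT (median 12.5) and from 7.55 to 14.05 TPM in WWP2 Mut/Mut mice (median 9.38). The same 3 WT mice were the highest, at 27.9 TPM (45-1), 25.4 TPM (43-3) and 17.5 TPM (84-2), and WT mouse 16-1 was the lowest of all. The means of Prelp were 14.5 ± 7.64 and 9.92 ± 2.09 TPM (SD, n = 9; two-sided exact permutation test, p = 0.110), and the log2 fold change was -0.38 (SE 0.192; unadjusted p = 0.0653, edgeR), or -0.17 without WT mouse 45-1. The exact permutation p of Prelp was 0.0292 without WT mouse 16-1, and between 0.0599 and 0.211 without any other mouse. Without the 4 mice the means of Prelp were 9.97 ± 2.73 TPM (SD, n = 6) and 9.99 ± 2.22 TPM (SD, n = 8), and the log2 fold change was -0.01 (SE 0.129; unadjusted p = 0.949, edgeR). Osteomodulin, best known from bone, was near the limit of detection, at 12 to 85 counts per mouse. Omd ranged from 0.18 to 1.39 TPM in WT (median 0.46) and from 0.27 to 0.53 TPM in WWP2 Mut/Mut mice (median 0.40), with WT mice 45-1 and 43-3 highest. Its log2 fold change was -0.05 (SE 0.306; unadjusted p = 0.884, edgeR), which turned to 0.35 (SE 0.312) without the 4 mice and to 0.28 without WT mouse 45-1 alone.

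Osteoglycin, the class III member, ranged from 12.1 to 34.55 TPM in WT (median 23.3) and from 14.2 to 26.45 TPM in WWP2 Mut/Mut mice (median 20.5). WT held the 3 highest mice, again 43-3, 45-1 and 84-2, and the 2 lowest, 16-1 and 94-2. The means of Ogn were 23.2 ± 7.91 and 19.6 ± 4.15 TPM (SD, n = 9; two-sided exact permutation test, p = 0.245), the log2 fold change was -0.13 (SE 0.135; unadjusted p = 0.336, edgeR), and the means without the 4 mice were 18.9 and 19.3 TPM. With 1 mouse left out the log2 fold change of Ogn reached -0.24 (without WT 16-1), -0.08 (without WT 45-1) and -0.07 (without WWP2 Mut/Mut 53-1). Podocan, the class V member, ranged from 2.40 to 5.04 TPM in WT (median 3.07) and from 1.93 to 4.09 TPM in WWP2 Mut/Mut mice (median 2.76). For Podn, WT mouse 94-2 was highest, and WT mouse 45-1, at the top for Dcn and Prelp, was the lowest WT mouse. The means of Podn were 3.21 ± 0.756 and 2.89 ± 0.782 TPM (SD, n = 9; two-sided exact permutation test, p = 0.404), and the log2 fold change was -0.16 (SE 0.216; unadjusted p = 0.468, edgeR). That of Podn was -0.05 without WT mouse 94-2, -0.08 without WWP2 Mut/Mut mouse 24-3, -0.10 without WT mouse 16-1 and -0.29 without WT mouse 25-3.

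The 3 WT libraries in which Fmod was high also had the highest Comp and Chad, from a list of genes of valve, cartilage and tendon. The summed TPM of 8 such genes (Acan, Col2a1, Chad, Cnmd, Comp, Hapln1, Scx and Tnmd) ranged from 7.41 to 29.3 in WT (median 9.60) and from 5.76 to 13.7 in WWP2 Mut/Mut mice (median 8.36). It was 29.3 TPM in WT mouse 43-3, 21.1 in 84-2 and 17.9 in 45-1, and 13.7 in WWP2 Mut/Mut mouse 8-2, which had the highest Fmod of its genotype. The largest terms of the sum were Scx and Comp. Scx, a tendon transcription factor, did not follow Fmod, at 8.27, 7.07 and 8.40 TPM in WT mice 43-3, 45-1 and 84-2 and 10.2 TPM in WWP2 Mut/Mut mouse 53-1, where Fmod was 0.36 TPM, and it made up 10.2 TPM of the sum in WWP2 Mut/Mut mouse 8-2. Comp, cartilage oligomeric matrix protein, was at 7.83 to 13.9 TPM in the 3 WT mice and 2.26 TPM or below in the rest. Chad, chondroadherin, was at 1.33 to 4.22 TPM in these 3 and 0.18 TPM or below elsewhere, whereas the cartilage genes Acan and Col2a1 did not exceed 0.20 and 0.04 TPM in any mouse. How much valve or tendinous cord each piece of ventricle held is not given in the sources used here, and its part in the SLRP values was not tested. In bulk tissue, more cells of a type and more RNA per cell cannot be told apart.

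**Figure D3:**
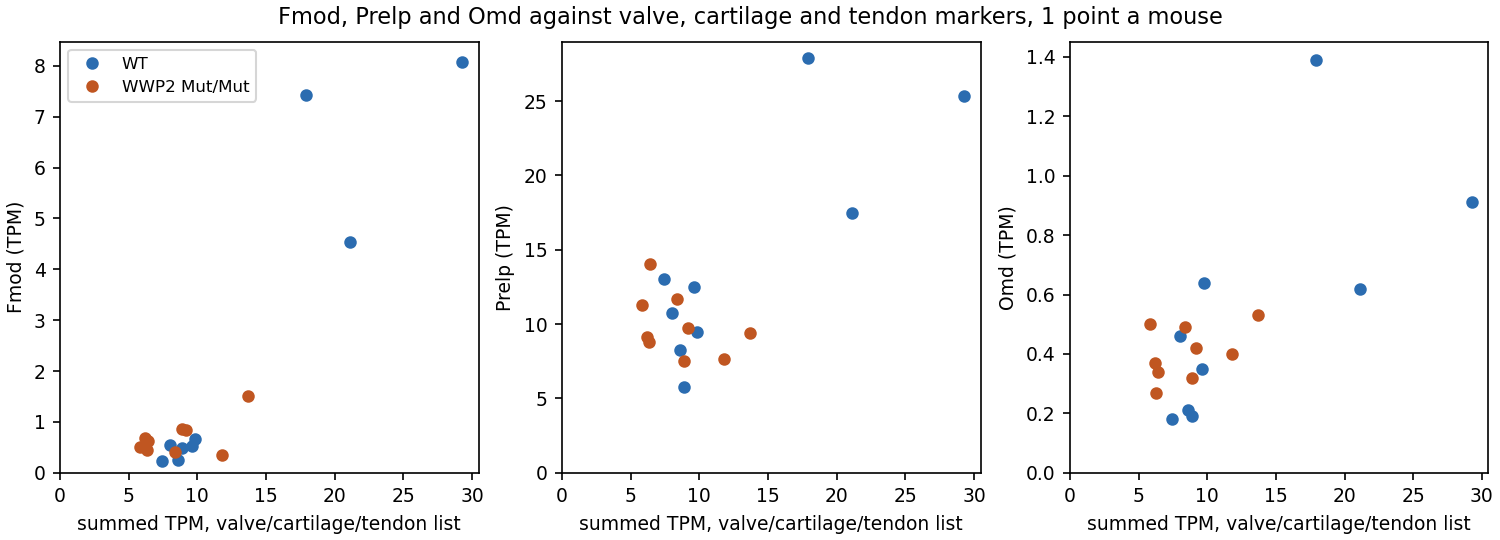
TPM of Fmod, Prelp and Omd (y axes) against the summed TPM of 8 valve, cartilage and tendon genes (x axis), 1 point per mouse, WT in blue and WWP2 Mut/Mut in orange. The 3 WT mice between 17.9 and 29.3 TPM on the x axis hold the highest Fmod and Prelp, and the other mice lie at 13.7 TPM or below.

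The SLRPs did not vary independently between mice. The correlation of log2(TPM + 1) over 18 mice had a median Pearson's r of 0.70 over the 45 pairs of genes, and 29 pairs passed an FDR of 0.05 over these pairs (permutation test, 100000 resamples). The median r was 0.50, with 17 pairs passing, over the 14 mice not high in the valve list, and 0.56, with 24 pairs passing, with TMM log2 CPM over all mice. These tests are of r = 0, and the share of other gene pairs that would pass is not given here. An r above 0.8 was found in 15 of 45 pairs (33.3%), against 10.3% of all pairs of expressed genes. With TMM-normalised log2 CPM, which removes shifts common to most genes, it was found in 6 pairs (13.3%, against 3.07%). Within a genotype the median over pairs was 0.77 in WT and 0.50 in WWP2 Mut/Mut mice, a difference that was not tested. A lane carried only 2 or 3 mice per genotype, so no r was computed by lane.

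Dcn, Lum, Ogn, Aspn and Ecm2, a group chosen after the correlations were seen, formed a block with r from 0.81 to 0.95 over their 10 pairs. The r of these pairs was 0.86 to 0.97 in WT mice, 0.65 to 0.95 in WWP2 Mut/Mut mice, 0.73 to 0.94 without the 4 mice high in the valve list, and 0.68 to 0.89 with TMM log2 CPM. Dcn and Ecm2 had r = 0.95 and rho = 0.91 (permutation test, p = 1e-05 for both, the smallest these resamples can give), and r was 0.95 without the 2 mice farthest from the median of Dcn and 0.96 with lane and RNA concentration removed. The neighbours Dcn and Lum had r = 0.92 and rho = 0.94 (permutation test, p = 1e-05 for both), and r = 0.89 without the 2 farthest mice. Aspn and Ogn, of the chromosome 13 cluster, had r = 0.85 (permutation test, p = 3e-05) and rho = 0.80 (p = 0.00016), and r = 0.80 without the 2 farthest mice. Prelp and Ogn, on different chromosomes, had r = 0.88 and rho = 0.90 (permutation test, p = 1e-05 for both), r = 0.84 without the 2 farthest mice and r = 0.83 over the 14 mice.

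Fmod, Prelp and Omd were correlated with each other over 18 mice, but 3 WT mice stand apart in Fmod and the values changed without high mice. Fmod and Omd had r = 0.84 (permutation test, p = 5e-05) and rho = 0.68 (p = 0.00261), with r = 0.58 without the 2 mice farthest in Fmod. Fmod and Prelp, neighbours on chromosome 1, had r = 0.81 (permutation test, p = 0.00055), rho = 0.38 (p = 0.121) and r = 0.45 without the same 2 mice. Prelp and Omd had r = 0.78 (permutation test, p = 0.0003) and rho = 0.53 (p = 0.0269), with r = 0.40 without the 2 mice farthest in Prelp. Over the 14 mice not high in the valve list, which lack WWP2 Mut/Mut mouse 8-2 as well as those 3, Fmod and Prelp had r = -0.08 (permutation test, p = 0.783), Fmod and Omd r = 0.43 (p = 0.127) and Prelp and Omd r = 0.26 (p = 0.369). Bgn and Podn had lower r with the genes of the block. Podn had r from -0.15 to 0.08 with 8 of the other 9 genes over all mice, but with opposite signs within genotypes, at -0.53 in WT and 0.41 in WWP2 Mut/Mut mice with Dcn, -0.50 and 0.50 with Ogn and -0.34 and 0.66 with Prelp, a difference that was not tested. WT mouse 94-2 had the highest Podn (5.04 TPM) and the lowest Dcn (123 TPM) of all mice. The r values within WT may rest on this mouse, and none is given here without it. With TMM log2 CPM, Ogn and Podn had r = -0.54 (permutation test, p = 0.0212), and -0.50 over the 14 mice, which include WT mouse 94-2. On log2(TPM + 1) this pair had r = -0.02 over 18 mice and 0.34 without the 2 mice farthest in Ogn. Podn had r = 0.59 with Bgn (permutation test, p = 0.00995; rho = 0.65, p = 0.00416), which was 0.58 without the 2 farthest mice, 0.56 in WT and 0.64 in WWP2 Mut/Mut mice. Bgn and Dcn, the closest relatives in class I, had r = 0.27 (permutation test, p = 0.277) and rho = 0.25 (p = 0.316), with 0.12 in WT and 0.50 in WWP2 Mut/Mut mice. Bgn and Lum had r = 0.51 (permutation test, p = 0.0306, adjusted p = 0.0475; rho = 0.53, p = 0.0263), which was 0.57 without the 2 farthest mice, 0.55 over the 14 mice and 0.25 with TMM log2 CPM.

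**Figure D4:**
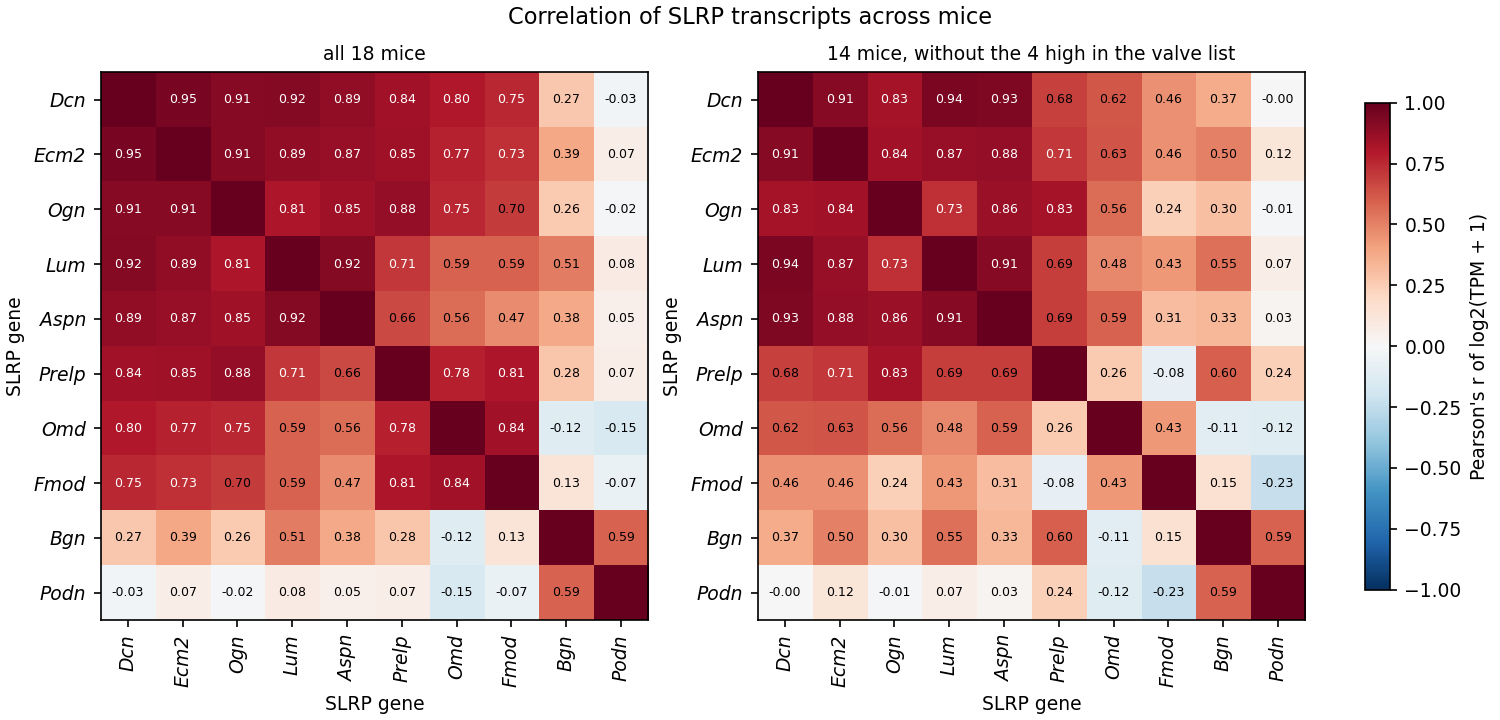
Pearson's r of log2(TPM + 1) for every pair of SLRPs, from -1 (blue) to 1 (red), over all 18 mice (left) and over 14 mice without the 4 high in the valve list (right). Dcn, Ecm2, Ogn, Lum and Aspn keep r of 0.73 or more in both panels, the link of Fmod with Prelp goes from 0.81 to -0.08, and Podn lies between -0.15 and 0.08 with all but Bgn in the left panel.

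Outside the family, the genes whose log2(TPM + 1) followed the mean of the scaled SLRPs most closely over 18 mice were Colec12, a scavenger receptor of the collectin family (r = 0.97), Cyp20a1 (0.96), Ccdc80, a secreted matrix protein (0.96), Fam114a1 (0.95), Reck, a membrane inhibitor of matrix metalloproteinases (0.95), and Itih5 (0.94). These r values describe the same 18 libraries, in which depth and RNA quality also vary. A gene body coverage fraction in the deposited sample table moved against most SLRPs, with r = -0.80 for Ogn (permutation test, p = 4e-05, 1 of 10 relations, adjusted p = 0.000400; rho = -0.85, p = 2e-05), -0.76 for Aspn, -0.63 for Dcn and -0.23 for Podn. For Ogn r was -0.76 without the 2 farthest mice, -0.82 in WT and -0.83 in WWP2 Mut/Mut mice. The same fraction had a median r of -0.57 with all expressed genes. With TMM log2 CPM, r was -0.65 for Ogn and -0.34 for Dcn, and the part of RNA quality in these levels was not tested.

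The summed TPM of 10 fibroblast genes, none of them an SLRP, ranged from 148 to 350 in WT (median 256) and from 180 to 293 in WWP2 Mut/Mut mice (median 223). On the log2 scale this sum had r = 0.83 with Ecm2 (permutation test, p = 2e-05; rho = 0.83, p = 5e-05), which was 0.75 without the 2 farthest mice, 0.92 in WT and 0.54 in WWP2 Mut/Mut mice, and r = 0.80 with Lum, 0.76 with Dcn, 0.58 with Bgn and 0.14 with Podn, where all expressed genes had a median r of 0.42. With TMM log2 CPM these were 0.72 for Ecm2, 0.69 for Lum, 0.62 for Dcn, 0.20 for Bgn and -0.16 for Podn. Within WWP2 Mut/Mut mice r lay between -0.32 (Omd) and 0.82 (Bgn), with 0.25 for Ogn and 0.36 for Prelp. Taken relative to the mean log2 level of these fibroblast genes, the difference between genotypes was -0.10 for Dcn (two-sided exact permutation test, p = 0.451), -0.24 for Prelp (p = 0.129) and between -0.11 and 0.03 for the others except Fmod, at -0.45 (p = 0.205). The summed TPM of 9 activated fibroblast genes, Comp among them, was 54.9 to 182 in WT (median 119) and 50.7 to 94.4 in WWP2 Mut/Mut mice (median 65.2), and all 9 had a negative fitted log2 fold change in edgeR, 4 of them at an unadjusted p below 0.05, with 0 called, where 51.9% of all genes were negative and 3.66% had such a p. The exact permutation test of that sum gave p = 0.00638 (adjusted p = 0.121 over 19 lists).

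The study links WWP2 to expression of matrix genes, so the SLRPs were set against Wwp2 within each genotype, since the genotypes do not overlap in Wwp2, a relation chosen after the data were seen. In WT mice, Prelp had r = 0.91 (exact permutation test, p = 2.76e-05, adjusted p = 0.000551 over 20 relations) and rho = 0.95 (p = 0.000353) with Wwp2. For Prelp r was 0.92 without the 2 mice farthest in Wwp2, 0.91 over the 6 WT mice not high in the valve list and 0.85 with TMM log2 CPM. Ogn followed with r = 0.85 (exact permutation test, p = 0.000331, adjusted p = 0.00331) and rho = 0.95, at 0.84 without the 2 farthest mice, 0.74 over the 6 WT mice not high in the valve list and 0.73 with TMM log2 CPM, and Ecm2 with r = 0.78 (exact permutation test, p = 0.00654, adjusted p = 0.0436), at 0.58, 0.61 and 0.52 in the same order. All expressed genes had a median r of 0.64 with Wwp2 in WT mice on this scale. The p values above test r = 0, so they do not show whether an SLRP differs from other genes. Bgn and Podn were below that median at 0.22 and -0.19. For Bgn r was 0.77 over the 6 WT mice not high in the valve list and -0.27 with TMM log2 CPM, and for Podn 0.10 and -0.57. Fmod went from 0.65 to -0.19 over the same 6 mice. In WWP2 Mut/Mut mice r lay between -0.59 for Omd (exact permutation test, p = 0.0795, adjusted p = 0.177; rho = -0.72, p = 0.0369; r = -0.86 without the 2 farthest mice) and 0.40 for Bgn, and was -0.27 for Prelp, -0.19 for Ogn and 0.01 for Ecm2, with a median of -0.17 over expressed genes, and none of the 10 SLRPs passed the adjustment. The difference between genotypes in these correlations was not tested.

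**Figure D5:**
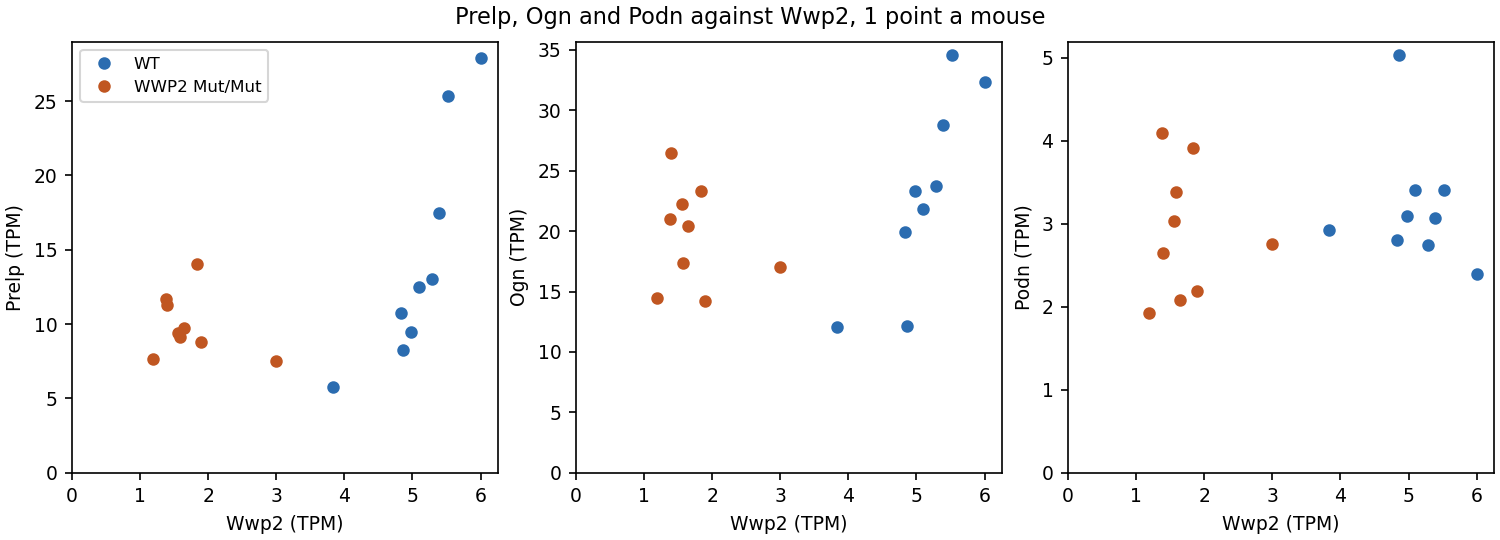
TPM of Prelp, Ogn and Podn (y axes) against TPM of Wwp2 (x axis), 1 point per mouse, WT in blue and WWP2 Mut/Mut in orange. In WT Prelp and Ogn are higher in mice with more Wwp2 (r = 0.91 and 0.85 on the log2 scale) and Podn is not (r = -0.19), and in WWP2 Mut/Mut mice, to the left, r is -0.27 for Prelp and -0.19 for Ogn.

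None of the genes listed for SLRP biology passed an FDR of 0.05 between genotypes in edgeR, and the counts of negative fold changes below stand beside 51.9% of all genes. Among 8 other SLRP family genes, 4 had negative fold changes, and the 2 with the lowest p were the cartilage proteins Chad (log2 fold change -2.44, unadjusted p = 0.0595, edgeR), at 0.899 ± 1.53 and 0.0522 ± 0.0593 TPM (SD, n = 9, WT first), and Epyc (-2.18, unadjusted p = 0.0696), at most 0.75 TPM. Without the 4 mice high in the valve list both turned, Chad to 2.08 (unadjusted p = 0.0772, edgeR) and Epyc to 0.67 (unadjusted p = 0.640). Chad is itself in that list and was highest in the WT mice left out, so its fold change had to rise without them. In the mice that were left it was at 0.10 TPM or below. Of the rest Tsku, a secreted BMP antagonist, was above 1 TPM in 12 mice and Chadl in 8, and Kera, Optc, Nyx and Podnl1 in none. Of 23 enzymes for chondroitin and dermatan sulfate chains, 15 had negative fold changes, with a median of -0.07. The lowest p was that of Dse, the epimerase that converts chondroitin to dermatan sulfate, at 0.980 ± 0.418 and 0.751 ± 0.319 TPM (SD, n = 9; log2 fold change -0.40, unadjusted p = 0.0758, edgeR), followed by Chsy3 (-0.76, unadjusted p = 0.196) at 0.10 TPM or below. Of 9 tested enzymes for keratan sulfate chains, 4 were negative, with B3gnt2 (-0.69, unadjusted p = 0.143) and B4galt1 (-0.07, unadjusted p = 0.433) first.

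Of 12 proteases that cut SLRPs, 11 had negative fold changes, with a median of -0.10. Mmp12, the macrophage elastase, had 0.384 ± 0.289 and 0.173 ± 0.0592 TPM (SD, n = 9; log2 fold change -0.97, unadjusted p = 0.0460, adjusted p = 1.00, edgeR) on 4 to 74 counts, and Mmp13 had -0.42 (unadjusted p = 0.107). Of 12 collagen partners, 10 were negative, with a median of -0.11. Col12a1, a fibril-associated collagen to which decorin and fibromodulin bind, had 0.597 ± 0.506 and 0.234 ± 0.119 TPM (SD, n = 9; log2 fold change -0.93, unadjusted p = 0.0118, adjusted p = 0.999, edgeR), and Col5a2 had -0.17 (unadjusted p = 0.267). Of the 3 TGF-beta ligands held by SLRPs, 2 were negative, and Tgfb1 was not. The 2 were Tgfb2 and Tgfb3, which also had the lowest p, at a log2 fold change of -0.41 (unadjusted p = 0.00909, adjusted p = 0.965, edgeR) and -0.09 (unadjusted p = 0.361). Of 13 receptors bound by soluble SLRPs, 11 were negative, with a median of -0.09, and the lowest p was that of Tlr4 (-0.27, unadjusted p = 0.368, edgeR), a receptor for biglycan and decorin, followed by Lrp1 (-0.11, unadjusted p = 0.400).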

How the data were processed

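RNA of the left ventricle of 18 mice (9 per genotype by the labels and methods; the results text gives 8) was poly(A)-selected and sequenced. The authors aligned reads with STAR 2.5.2b to the mouse genome m38 and quantified Ensembl 89 genes with RSEM 1.2.31, without rRNA and mitochondrial genes. They deposited the expected counts (5.11% not whole) and TPM, whose sums of 671770 to 826381 show that removed genes held part of the nominal total, a share that differs between mice. The deposited sample table gives a gene body coverage fraction, RNA concentration and lane.

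Here counts were rounded, and genes totalling more than 1 count (24804) were tested with edgeR 4.0.16 (TMM, quasi-likelihood test, R 4.3.3), with RNA concentration and lane as covariates as in the study's model, and Benjamini-Hochberg adjustment over all genes. DESeq2 1.42.0 and limma 3.58.1 on log2(TPM + 1) were alternatives. TPM of single genes was compared by two-sided exact permutation over all 48620 divisions of the mice (Python 3.11.15, scipy 1.17.1), and correlations by 100000 permutations. The scripts were tested on simulated data. Expressed genes had more than 1 TPM in at least 2 mice. Symbols were matched for 51242 of 51435 genes (99.6%).

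The members and gene lists were chosen with earlier results of these data known. Named genes are the 10 members, Wwp2, the 2 of each pathway list with the lowest edgeR p, and the 6 genes most like the members' mean. Genes of the valve list are named beside the values they bear on.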

Additional observations from a re-analysis of the deposited data

Results flagged for a closer look

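In 22 groups of 9 mice (the 10 SLRPs and Wwp2 in 2 genotypes), a mouse at either end was marked where the distance to its neighbour was over 0.493 of the range (the critical value of Dixon for 9 values), which chance alone does in about 1 of 20 groups. There were 3 such mice. Fmod in WWP2 Mut/Mut mouse 8-2 was 1.51 TPM, with a gap of 0.565 of the range, in the library with the highest valve, cartilage and tendon sum of its genotype. Podn in WT mouse 94-2 was 5.04 TPM, with a gap of 0.617 of the range, in a library with the lowest WT level of Dcn. Wwp2 in WWP2 Mut/Mut mouse 52-1 was 3.00 TPM, with a gap of 0.608 of the range, still below every WT mouse. The 3 WT mice high in Fmod were not marked, since they lie near each other.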

How the results depend on the processing

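No SLRP was called under any of 34 alternatives of the fit, 8 to 10 of 10 were lower (9 of 9 in the 2 limma fits of expressed genes, where Omd was not tested), and their median log2 fold change lay between -0.40 (limma on log2(TPM + 0.1)) and -0.13 (no covariates, or without the mice high in the valve list); with 1 mouse left out it lay between -0.32 and -0.16. The number of genes called was 2 with limma over all counted genes and 2 without the mice high in the valve list, and 1 to 2 with 1 mouse left out. Unadjusted p was below 0.05 for up to 5 SLRPs with 1 mouse left out (Dcn, Aspn, Ecm2, Lum and Prelp without WT mouse 16-1, where 4.21% of all genes were). It was so for 1 (Dcn) with limma on log2(TPM + 1), against 3.82% of expressed genes. Fmod alone was below 0.05 without covariates (4.6% of all genes) and with lane alone (2.75%), and Aspn alone without the mice high in the valve list (2.6%). There were 4 (4.07% of all genes) when the RNA concentration of WT mouse 43-3 was multiplied by 100, a choice made after seeing the data, as was leaving out the mice high in the valve list. The exact test of TPM fell below 0.05 for 0 to 2 SLRPs with 1 mouse left out, namely Ecm2 (p = 0.0340) and Prelp (p = 0.0292) without WT mouse 16-1 and Ecm2 (p = 0.0475) without WT mouse 94-2, and for none under rescaled TPM, log2(TPM + 1), TMM CPM, permutation within lanes or values relative to fibroblast genes. Mouse 16-1 was the lowest WT mouse for both genes and 94-2 the next lowest for Ecm2. The share of all expressed genes below 0.05 without these mice is not given here. The mice high in atrial or liver genes were 1 mouse, WT 45-1.

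Bgn, fitted at 0.00, turned to -0.05 with gene body coverage added, -0.16 with limma at either pseudocount and over all counted genes, -0.14 without the mouse high in liver genes, -0.01 with the altered RNA concentration and -0.11 without the mice high in the valve list, and lay between -0.14 and 0.07 with 1 mouse left out, where the negative values were -0.14, -0.07, -0.04, -0.02, -0.01 and -0.00153. Omd, at -0.18 to 0.28 with 1 mouse left out, turned to 0.15 with the fibroblast list added, 0.28 without the mouse high in liver genes, 0.35 without the mice high in the valve list, and 0.13 without WWP2 Mut/Mut mouse 53-1. Fmod turned to 0.32 without the mice high in the valve list. The cause of these changes was not tested. Pairs passing an FDR of 0.05 fell from 29 to 17 without the mice high in the valve list, where fewer mice were used and the median r fell from 0.70 to 0.50. No paired analysis was possible because no whole mouse label occurs in both genotypes. The labels have 2 parts whose meaning is not given in the sources used here: WT mice 45-1 and 45-3 share the first, and the second (1, 2 or 3) occurs in both genotypes, with 1 in lanes 1 and 2 alone. With the second number added to the fit, a choice made after seeing the data, no SLRP was called, and 4 (Dcn, Aspn, Lum and Prelp) had an unadjusted p below 0.05, against 4.11% of all genes. At 12 to 85 counts, Omd is limited by depth.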
